A study of Homo sapiens with 18 samples.

Results

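The insulin-like growth factor (IGF) system was followed through 10 genes: the ligand genes IGF1 and IGF2, the receptor gene IGF1R, and the binding-protein genes IGFBP1 to IGFBP7. They were chosen by symbol, with earlier results of these data known, and each matched 1 of the 50119 genes with expression values. The values came from Saos-2, an established human osteosarcoma (OS) cell line, in 18 poly(A) RNA libraries that fell into 6 groups of 3. All cells were labelled WT, and the groups differed in how the cells were grown. D-2 was cells grown flat and D-3 was cells inside Matrigel, a basement membrane extract. DP-3 was tissue printed from cells in a bioink of methacrylated gelatin and alginate, and the cultures of these 3 groups were taken at day 14. A separate set of printed tissues, DP-3 day 1, was taken at day 1. FIT was the fresh tumor that the cells formed after injection in Matrigel under the skin of the axilla of 4-week-old female BALB/c nude mice, removed at week 2 and labelled day 14. IT was tissue isolated from such tumors and kept on Matrigel to day 14. The removed tumor was divided between this culture and the fresh tissue, so IT and FIT libraries can share tumors. The labels do not say which libraries do. The cell cultures were fed DMEM-F12 medium with 10% fetal bovine serum.

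These groups have limits as models. All of them rest on a single line, and tumor pieces (IT and FIT) can hold mouse vessels, stroma and muscle. The labels do not say that the replicates came from separate cultures or animals, so p-values measure the spread between these libraries, which may be technical. Of 8 markers of bone-forming cells, SP7 and IBSP stayed below 0.1 FPKM (mapped fragments, scaled to transcript length and library depth) in every library, and ALPL reached that level in DP-3 alone. Library totals ran from 23721666 estimated counts (FIT replicate 3) to 79082786. The DP-3 day 1 libraries stood apart from the other 15 in having 34591 to 34919 genes above 0 FPKM against 22915 to 29630. DP-3 replicate 3 had 34.0% of its FPKM in mitochondrial transcripts, against 17.7% and 18.5% in the other DP-3 libraries. In FIT replicate 3 the 10 muscle markers summed to 5.67 FPKM, against 1.12 and 1.75 in the other FIT libraries and at most 0.863 in any other group.

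IGF1 and IGF2 are secreted growth factors that act through the receptor tyrosine kinase encoded by IGF1R, which feeds the PI3K-AKT and MAPK cascades. The secreted binding proteins hold IGFs outside the cell. They prolong the ligands' life in tissue fluid, keep them from the receptor or, after cleavage by proteases such as PAPPA and PAPPA2, release them. In bone, IGFBP5 binds the mineralised matrix, and IGFBP3, IGFBP4 and IGFBP5 are products of osteoblasts.

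The upstream regions of 3 binding-protein genes are given because these genes had lower levels in the cell cultures than in the fresh tumor. RefSeq on GRCh38.p14 held regions for 7 of the 10 genes, and none for IGF2, IGFBP1 and IGFBP7. Each sequence below is the 250 bases just before the start site, read 5′ to 3′ on the gene's strand, with capitals for the motifs that were found.
IGFBP5 (chr2:216695550-216695799, minus strand): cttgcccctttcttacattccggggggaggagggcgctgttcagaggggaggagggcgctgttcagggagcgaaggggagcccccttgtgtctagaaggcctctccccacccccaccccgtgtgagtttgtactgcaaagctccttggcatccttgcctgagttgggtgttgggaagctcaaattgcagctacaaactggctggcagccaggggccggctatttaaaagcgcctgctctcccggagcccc
IGFBP3 (chr7:45921273-45921522, minus strand): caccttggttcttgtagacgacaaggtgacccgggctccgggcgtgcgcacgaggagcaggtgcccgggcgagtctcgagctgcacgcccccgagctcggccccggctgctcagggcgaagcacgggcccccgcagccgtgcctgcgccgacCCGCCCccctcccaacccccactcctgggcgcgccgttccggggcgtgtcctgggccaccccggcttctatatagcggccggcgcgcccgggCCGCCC
IGFBP4 (chr17:40443200-40443449, plus strand): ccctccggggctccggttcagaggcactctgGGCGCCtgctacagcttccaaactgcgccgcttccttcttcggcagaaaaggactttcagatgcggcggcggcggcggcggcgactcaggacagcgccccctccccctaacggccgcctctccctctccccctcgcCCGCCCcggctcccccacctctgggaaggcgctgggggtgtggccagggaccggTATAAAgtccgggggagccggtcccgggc

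In GENCODE 29 these windows lay outside the exons of the 3 genes except for the last 2 bases of the IGFBP3 window. The IGFBP5 window was in an intron of the antisense gene AC007563.2, and the IGFBP3 window was in an intron of another IGFBP3 transcript. Motifs were searched on both strands. The TATA box was searched as TATAAA. The GC box was searched as GGGCGG. The AP-1 site was searched as TGANTCA. The core of hypoxia elements was searched as ACGTG. A SMAD-type element was searched as GGCGCC. The capitals mark a TATA box 29 bases before the IGFBP4 start, a GC box 83 bases before it and GGCGCC 219 bases before it. In the IGFBP3 window they mark GC boxes at 98 and 6 bases before the start, both read on the other strand as CCGCCC, and in the IGFBP5 window none of the motifs was found. None of the printed matches overlapped another. Among 35116 RefSeq windows of the same length, 10.7% held the TATA box, 42.6% the GC box, 6.57% the AP-1 site, 18.5% ACGTG and 16.4% GGCGCC. The windows were 61.2% G and C for IGFBP5, 76% for IGFBP3 and 71.6% for IGFBP4, beside a median of 58% over all these windows.

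Transcripts of both ligands were at or close to the lowest level that could be counted. A floor of 12 estimated counts was used, which was taken as about 3 read pairs. IGF1 (chr12:102395874-102481744) was above this floor in 1 of 18 libraries, FIT replicate 3, with 16 counts and 0.0699 FPKM, and 7 libraries were at 0. IGF2 (chr11:2129112-2141238) exceeded it in 6 libraries. Its D-3 values were 17, 34 and 51 counts, its DP-3 day 1 values were 11, 23 and 15, and the highest level of all was 0.103 FPKM. The filter on expression, 0.1 FPKM reached in 3 of the 6 libraries compared, kept neither ligand in any comparison. Without the filter no change of IGF1 or IGF2 was called in any of the 7 comparisons. Reads of IGF2 can be shared with the overlapping readthrough gene INS-IGF2, which reached at most 0.00724 FPKM.

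IGFBP1 and IGFBP2 were also scarce. IGFBP1, which the liver secretes under insulin control, had 55, 42 and 4 counts in FIT and 19, 4 and 0 in IT. It had at most 8 counts in any other library and 0 in all 3 DP-3 libraries. FIT was thus the group with most IGFBP1. FIT replicate 3, at 0.0824 FPKM, also lay above the highest culture library (0.0564 FPKM), but on a count below the floor. Against DP-3 the FIT mean was at least 3.19-fold higher, with the floor taken as 12 counts in each DP-3 library. IGFBP1 was not called in IT against FIT, the comparison in which it passed the filter (log2 fold change -2.27 ± 1.23 SE, edgeR adjusted p = 0.500). IGFBP2 was above the floor only in DP-3 day 1, where it had 8, 24 and 15 counts. All DP-3 libraries at day 14 were at 0, and DP-3 day 1 was at least 1.78-fold higher by the same floor. The DP-3 day 1 libraries had more genes above 0 than any others, and the part of this in the IGFBP2 values was not tested. The counts that these 2 genes rest on are few. The bounds allow for counting error in the group at 0 only. They leave out that of the other group and the spread between libraries.

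**Figure D1:**
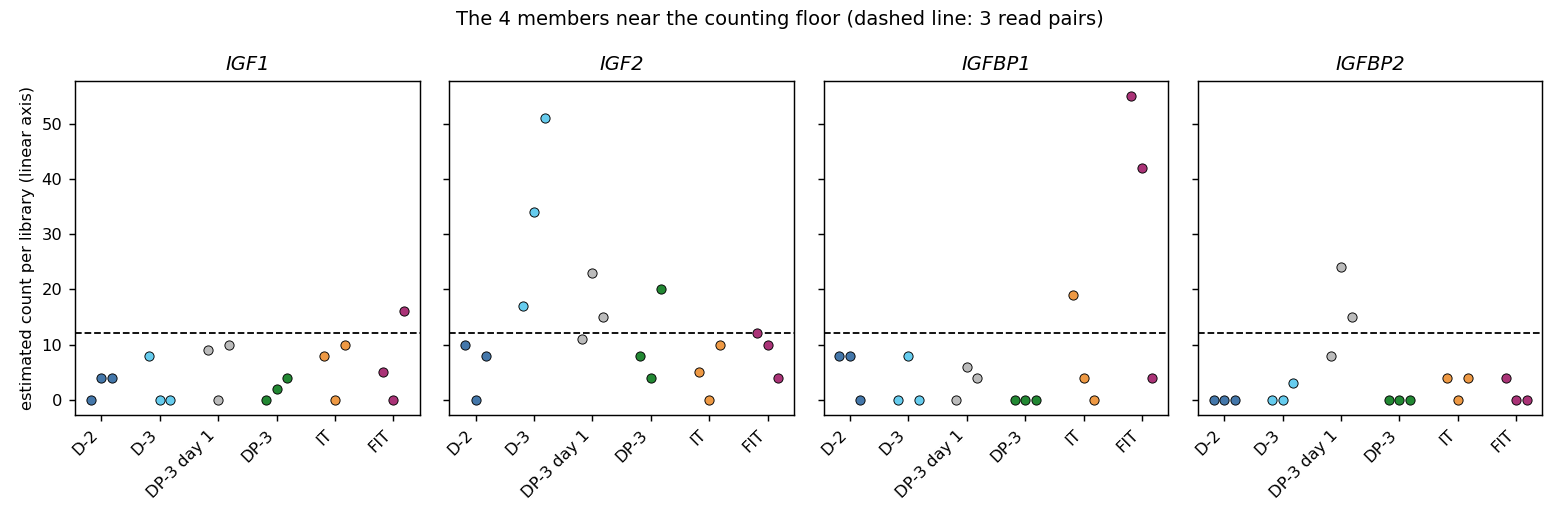
Estimated counts (linear axis) of IGF1, IGF2, IGFBP1 and IGFBP2 in each library (points, replicates 1 to 3 from left to right) of the 6 groups. The dashed line is the floor of 12 counts: IGF1 passes it once, IGF2 in 6 libraries with up to 51 counts in D-3, IGFBP1 in 2 FIT libraries and 1 IT library, and IGFBP2 in 2 DP-3 day 1 libraries.

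IGF1R (chr15:98648539-98964530) was transcribed in all 18 libraries at a low and uneven level. Its FPKM was 1.75, 1.59 and 1.77 in D-2. It was 2.52, 1.36 and 2.67 in D-3 and 2.72, 2.82 and 2.90 in DP-3 day 1. The DP-3 values were 1.39, 1.69 and 1.16, the IT values 1.79, 1.12 and 4.70, and the FIT values 2.76, 1.25 and 1.07. The IT and FIT libraries together spanned the whole range seen, and no neighbouring groups in the order of the means were separate. The receptor was not called in any comparison. In DP-3 against DP-3 day 1 its libraries did not overlap and the adjusted p passed (edgeR adjusted p = 0.00930), but the log2 fold change of -0.73 ± 0.13 SE was below the 2-fold limit. Antisense genes lie within IGF1R, and the counting was not stated to use strand.

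The binding-protein genes IGFBP3 to IGFBP7 were above 0.1 FPKM in all 18 libraries. A change was called where edgeR's quasi-likelihood test gave a Benjamini-Hochberg adjusted p below 0.05 over all genes tested and a fold change of at least 2. Comparisons with FIT share the same 3 control libraries, so their results are not independent of each other. In a bulk library, fewer cells of a type and less RNA per cell cannot be told apart.

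IGFBP5 (chr2:216672105-216695549) had the widest range of the 10 genes. Its FPKM was 111, 73.5 and 25.8 in FIT and 41.4, 14.7 and 13.8 in IT. The cell cultures held far less: 1.01, 0.985 and 1.50 in D-2, 1.11, 1.78 and 0.909 in DP-3, 1.74, 0.530 and 0.735 in D-3, and 0.684, 0.489 and 0.668 in DP-3 day 1. The lowest tumor-derived library was thus well above the highest of the 12 culture libraries, a split whose share among all genes was not counted. The order of the means was FIT, IT, DP-3, D-2, D-3 and DP-3 day 1, and the one gap between neighbours without overlap was that between IT and DP-3. IGFBP5 was 53.8-fold lower in D-2 than in FIT (log2 fold change -5.75 ± 0.57 SE, edgeR adjusted p = 0.00193). It was 72.9-fold lower in D-3 (-6.19 ± 0.70, adjusted p = 0.00370) and 50.7-fold lower in DP-3 (-5.67 ± 0.57, adjusted p = 0.00596). Within the tumor-derived tissue the groups overlapped, and the difference of IT from FIT was not called (-1.59 ± 0.59, adjusted p = 0.334).

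The IGFBP5 calls were as large without FIT replicate 3, the shallow library with the muscle signal: -6.07 in DP-3, -6.17 in D-2 and -6.60 in D-3. Once D-3 replicate 1 was left out, which held the most IGFBP5 of its group, the D-3 value was -6.84. Some markers of host cells moved with the tumor-derived groups and others did not. The genes were counted at human positions, and whether reads were also matched to the mouse genome is not stated. The sums are thus no direct measure of mouse cells. The cultures were grown without host cells, and their sums show these markers without a host. The sum over 7 endothelial markers was 3.90 to 6.54 FPKM in IT and FIT and 1.20 to 2.31 in the cultures, with KDR and ERG below 0.1 FPKM in every library and most of the sum from PECAM1. The sum over 7 fibroblast markers was 24.7 to 33.8 FPKM in FIT, 15.6 to 22.5 in IT and 9.20 to 19.5 in the cultures, with DCN below 0.1 FPKM throughout. The sum over 7 macrophage markers was 19.4 to 65.0 FPKM in IT and FIT and 43.0 to 117 in the cultures, nearly all of it from CD68 (18.6 to 115), with PTPRC and AIF1 below 0.1 FPKM in all libraries. The sum over 6 adipocyte markers was 0.388 to 0.778 FPKM in IT and FIT and 0.217 to 8.76 in the cultures, with ADIPOQ and LEP below 0.1 FPKM throughout. Over 6 keratinocyte markers the sum was 21.8 to 41.7 FPKM in FIT, 19.7 to 28.0 in IT and 16.3 to 26.6 in the cultures. Of these, KRT5 was at 0.642, 0.917 and 2.04 FPKM in FIT and at most 0.10 elsewhere, KRT14 reached 10.4 in FIT replicate 1, and KRT1 and DSG3 stayed below 0.1 FPKM. Mitochondrial transcripts took 18.7% to 25.2% of all FPKM in IT and FIT and 9.85% to 19.1% in the cultures other than DP-3 replicate 3. The part of host RNA and of the mitochondrial share in the levels of IGFBP5 and the other genes was not tested.

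IGFBP3 (chr7:45912245-45921274), which carries most of the IGF in blood, was split in the same way at a smaller scale. Its FPKM was 21.7, 18.7 and 10.1 in FIT and 13.8, 12.1 and 5.81 in IT. The day 14 cultures lay at 2.40, 2.40 and 2.46 in D-2, 2.18, 1.61 and 2.83 in DP-3, and 2.67, 2.13 and 3.46 in D-3. DP-3 day 1 was the lowest group, with 0.755, 0.888 and 0.798. Neither the tumor-derived libraries nor those of DP-3 day 1 overlapped with the day 14 cultures. IGFBP3 was 6.24-fold lower in D-2 than in FIT (log2 fold change -2.64 ± 0.28 SE, edgeR adjusted p = 0.00205). The decrease was 6.39-fold in D-3 (-2.67 ± 0.32, adjusted p = 0.00477) and reached 6.91-fold in DP-3 (-2.79 ± 0.34, adjusted p = 0.0101). The DP-3 call was lost without DP-3 replicate 1 (adjusted p = 0.0535), with the log2 fold change at -2.76. IT and FIT overlapped, and their difference was not called (-0.68 ± 0.37, adjusted p = 0.512).

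IGFBP4 (chr17:40443450-40457725), an inhibitor of IGF action that PAPPA cleaves, had the highest mean FPKM of the members in D-2, DP-3, IT and FIT. Its level was 228, 199 and 195 FPKM in IT and 189, 212 and 189 in FIT. The cultures held 109, 101 and 105 FPKM in D-2, 86.1, 96.3 and 109 in DP-3, 57.8, 111 and 99.8 in D-3, and 71.1, 76.9 and 76.7 in DP-3 day 1. All tumor-derived libraries again lay above all cultures, at a difference near 2-fold. The change from FIT was called in D-3 (log2 fold change -1.20 ± 0.25 SE, edgeR adjusted p = 0.0266), where the library at 57.8 FPKM stood below the others. That call was lost without D-3 replicate 1, D-3 replicate 3, FIT replicate 1 or FIT replicate 2, with an adjusted p of 0.0526, 0.0972, 0.0601 and 0.0857. In D-2 the adjusted p passed but the change was under 2-fold (-0.75 ± 0.11, adjusted p = 0.00390), and likewise in DP-3 (-0.89 ± 0.17, adjusted p = 0.0267). Without DP-3 replicate 3 the DP-3 value passed both limits, at -1.01 and an adjusted p of 0.0438. IT and FIT overlapped, and their difference was not called (0.08 ± 0.16, adjusted p = 0.890).

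IGFBP6 (chr12:53097436-53102345), which prefers IGF2 to IGF1, did not follow that split. Its FPKM was 224, 195 and 123 in FIT, 114, 73.2 and 112 in IT, and 184, 184 and 169 in DP-3 day 1. It was 131, 124 and 125 in D-3. The lowest levels were 68.3, 64.8 and 35.6 in DP-3 and 43.8, 51.5 and 51.1 in D-2. Matrigel culture and the early printed tissue thus lay nearer to FIT than D-2 and the late printed tissue did. In the order of the means (FIT, DP-3 day 1, D-3, IT, DP-3, D-2), FIT overlapped with DP-3 day 1 and DP-3 with D-2, and the other neighbours were separate. IGFBP6 was 3.33-fold lower in D-2 than in FIT (log2 fold change -1.74 ± 0.22 SE, edgeR adjusted p = 0.00302) and 2.97-fold lower in DP-3 (-1.57 ± 0.29, adjusted p = 0.0243). It was not called in D-3 (-0.57 ± 0.23, adjusted p = 0.163) or in IT (-0.86 ± 0.27, adjusted p = 0.272). DP-3 replicate 3, the library with the high mitochondrial share, held the least IGFBP6 and IGFBP7 of its group, and without it the changes in DP-3 were -1.34 for IGFBP6 and 1.84 for IGFBP7. The IGFBP6 call in DP-3 held in 1 of the 6 fits that left out a library, the one without FIT replicate 3. Without DP-3 replicates 1, 2 or 3 or FIT replicates 1 or 2 the adjusted p was 0.0698, 0.0671, 0.0581, 0.0823 and 0.0729, with changes of -1.34 to -1.72.

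IGFBP7 (chr4:57030773-57110385), a matrix-bound protein with weak affinity for IGFs, ran the opposite way. Its FPKM was 13.1, 19.7 and 37.2 in FIT and 12.6, 46.1 and 62.5 in IT. It was 75.9, 74.9 and 79.5 in D-2, 91.8, 64.2 and 41.9 in DP-3, 60.0, 48.7 and 54.7 in D-3, and 78.8, 81.6 and 78.6 in DP-3 day 1. Every culture library was above every FIT library, while IT spanned both ranges, with IT replicate 1 below all FIT libraries. IGFBP7 was 3.68-fold higher in D-2 than in FIT (log2 fold change 1.88 ± 0.35 SE, edgeR adjusted p = 0.00852) and 3.07-fold higher in DP-3 (1.62 ± 0.41, adjusted p = 0.0493). The D-2 call held in all 15 alternatives. The DP-3 call was close to the limit and held in 7 of 15 alternatives, DESeq2 included. It held in just 1 of the 6 fits that left out a library, the one without FIT replicate 3. Without DP-3 replicates 1, 2 or 3 or FIT replicates 1 or 2 the adjusted p was 0.125, 0.103, 0.0743, 0.119 and 0.134. The D-3 difference was not called (1.18 ± 0.33, adjusted p = 0.0675) but was without FIT replicate 3 (1.63, adjusted p = 0.0133), by DESeq2 (1.15, adjusted p = 0.0126) and with no expression filter (1.17, adjusted p = 0.0236). FIT replicate 3 held the most IGFBP7 of its group and the least IGFBP3, IGFBP5 and IGFBP6. POLR2B and IGFBP7-AS1 overlap IGFBP7 on the other strand, and without strand their reads could not be told apart.

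**Figure D2:**
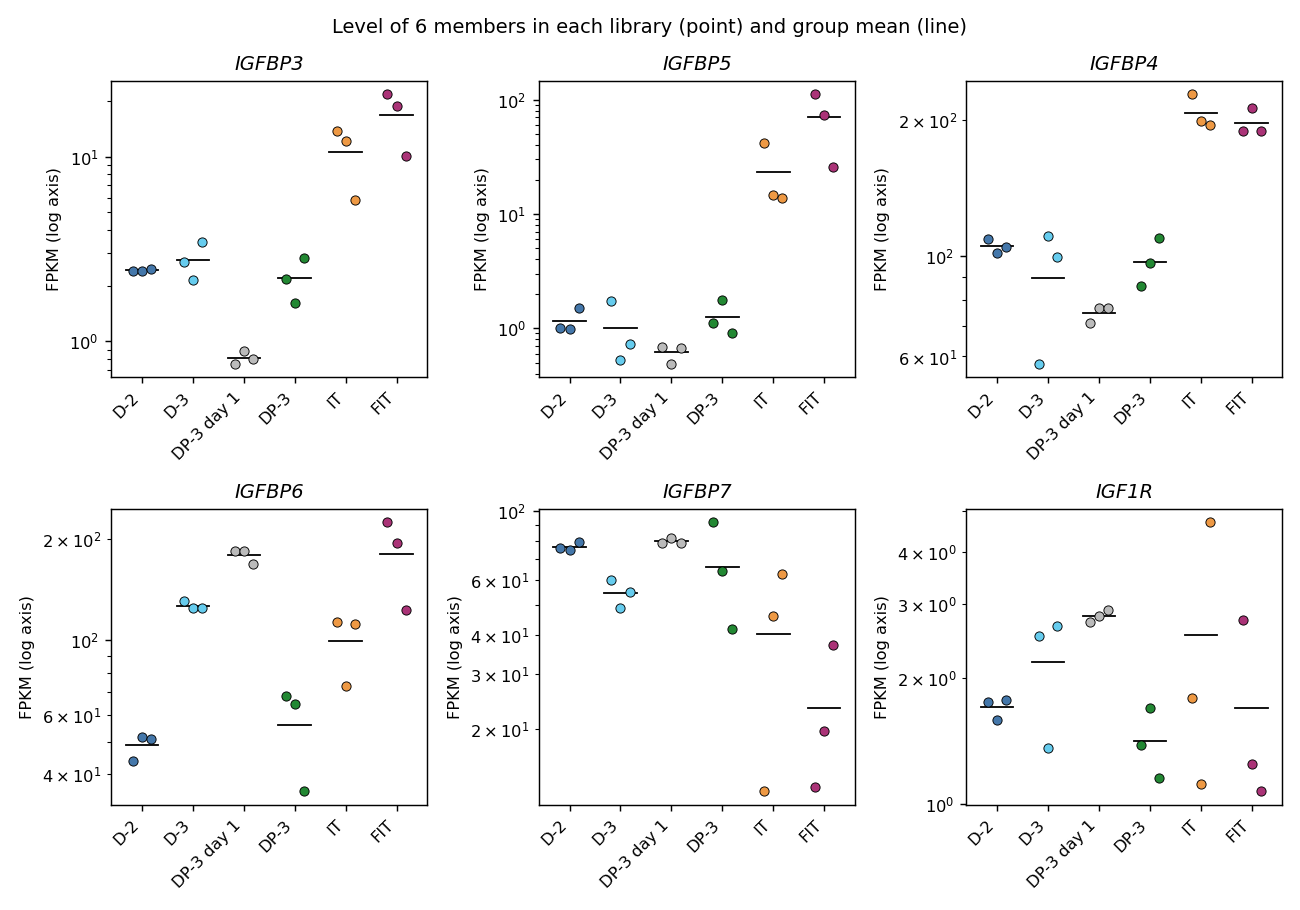
FPKM (log axis, a separate range in each panel) of IGFBP3, IGFBP5, IGFBP4, IGFBP6, IGFBP7 and IGF1R in each library (points, replicates 1 to 3 from left to right), with the group mean as a line. IGFBP5 lies between 13.8 and 111 in IT and FIT and at or below 1.78 in the cultures, and IGFBP7 shows the reverse for FIT.

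Counted by comparison, 4 of the 6 members tested were called in D-2 against FIT, with IGFBP7 higher and IGFBP3, IGFBP5 and IGFBP6 lower, where 14.6% of all genes tested were called (3.83% higher, 10.8% lower). In D-3 against FIT, 3 of 6 were called, all lower (IGFBP3, IGFBP4 and IGFBP5), where 6.45% of all genes were called (4.29% higher, 2.17% lower). In DP-3 against FIT, 4 of 6 were called, the same symbols and directions as in D-2, beside 4.82% of all genes (1.66% higher, 3.16% lower). Without FIT replicate 3 these counts were 4, 4 and 4. Without DP-3 replicate 1 the DP-3 count was 1, and without DP-3 replicate 2 it was 2. The median log2 fold change of the members tested was -1.24 in D-2, -1.23 in DP-3 and -0.89 in D-3, beside -0.09, -0.06 and 0.02 over all genes tested. In IT against FIT, 0 of 7 members and 0% of all genes were called by edgeR. Unadjusted, 2 members (IGFBP5 and IGFBP6) fell under 0.05 there, as did 2693 of 21183 genes. DESeq2 called 661 genes there, and again no member. Groups without overlap were common among all genes tested: the share was 49.9% in D-2, 34.1% in DP-3, 32.4% in D-3 and 20.6% in IT against FIT, 45.2% between the days of DP-3, 53.2% in D-3 against D-2 and 39.7% in DP-3 against D-3. Splits across several groups, such as tumor-derived tissue against all cultures, were not counted over all genes.

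**Figure D3:**
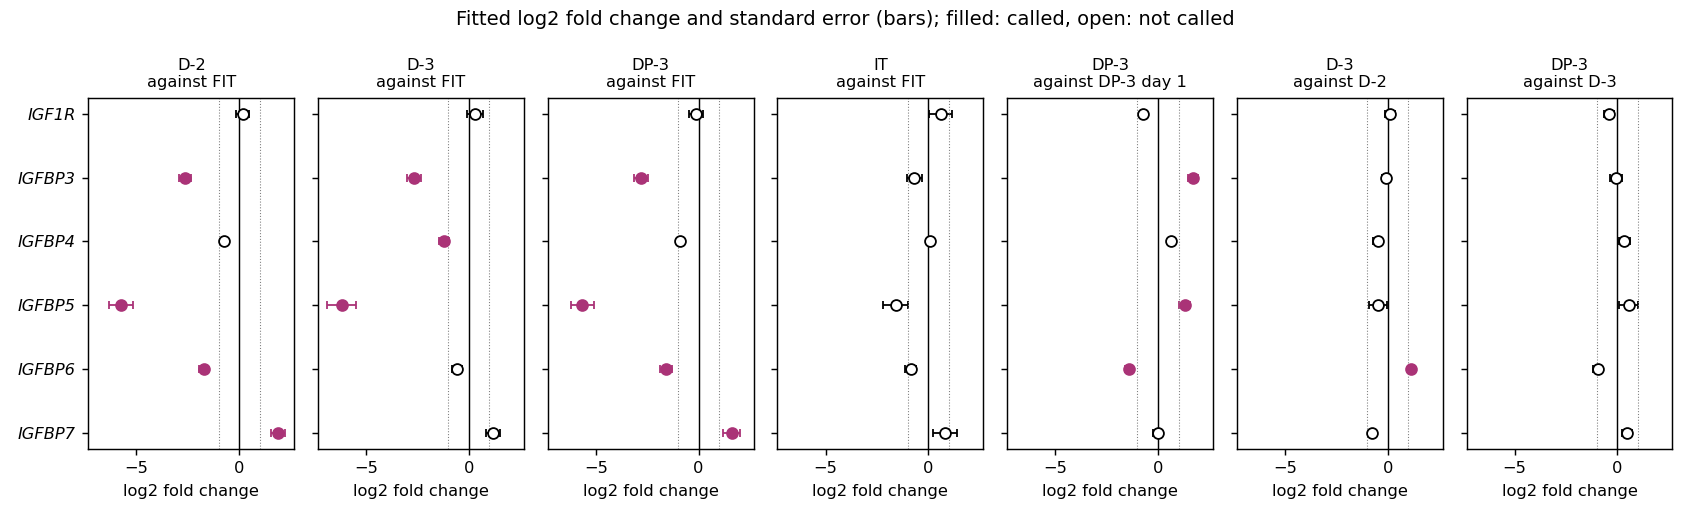
Fitted log2 fold change (horizontal axis) and its standard error (bars) of IGF1R and 5 binding-protein genes in the 7 comparisons, positive where the first group is higher. Filled points are called and open points are not, dotted lines mark 2-fold, and IGFBP5 lies furthest from 0 in the 3 cultures compared with FIT, at -5.75, -6.19 and -5.67.

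Between day 1 and day 14 of printed culture, the question was how separate sets of printed tissue differed by time. In DP-3 against DP-3 day 1, 3 of 6 members were called, where 7.56% of all genes tested were called (1.81% higher, 5.76% lower). IGFBP3 was 3.27-fold higher at day 14 (log2 fold change 1.71 ± 0.26 SE, edgeR adjusted p = 0.00595) and IGFBP5 2.46-fold higher (1.30 ± 0.28, adjusted p = 0.0177). IGFBP6 was 2.67-fold lower (-1.41 ± 0.21, adjusted p = 0.00551). In each case the libraries of both times did not overlap. At day 14, IGFBP5 was still below 2 FPKM, and its call was lost without day 1 replicate 1, 2 or 3 (adjusted p = 0.0528, 0.0697 and 0.0579). IGFBP4 was higher at day 14 by less than 2-fold (0.65 ± 0.12, adjusted p = 0.0124), and IGFBP7 was not called (-0.01 ± 0.23, adjusted p = 0.973). The day 1 libraries showed more genes above 0 than the rest. Of all genes tested, 35.2% were lower at day 14 without overlap and 9.96% higher, and the part of this in the members' values was not tested.

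Between culture formats at day 14, members were called no more often than all genes tested. In D-3 against D-2, 1 of 6 members was called, where 18.5% of all genes tested were called (14.6% higher, 3.95% lower). IGFBP6 was 2.18-fold higher in D-3 (log2 fold change 1.13 ± 0.11 SE, edgeR adjusted p = 0.00142), and the call held without each library in turn. IGFBP7 was lower in D-3 without overlap but by less than 2-fold (-0.75 ± 0.11, adjusted p = 0.00375). IGFBP5 was not called (-0.47 ± 0.44, adjusted p = 0.444), but leaving out D-3 replicate 1 it was (-1.09, adjusted p = 0.0424). In DP-3 against D-3, 0 of 6 members were called by edgeR, where 9.12% of all genes were called (1.98% higher, 7.15% lower). IGFBP6 came closest, at -0.97 ± 0.22 with an adjusted p of 0.0269, just under 2-fold, and its libraries did not overlap. It was the 1 member of that comparison under 0.05 without adjustment, and DESeq2 called 0 members as well. Without D-3 replicate 2 or DP-3 replicate 1 it passed both limits (-1.01 and -1.12).

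The make-up of the binding-protein transcripts differed between groups. The summed FPKM of the 7 binding-protein genes was 385 to 559 in FIT, 345 to 409 in IT, 326 to 344 in DP-3 day 1, 253 to 287 in D-3, 231 to 239 in D-2 and 191 to 249 in DP-3. IGFBP5 made up 6.72% to 19.8% of the sum in FIT and 3.54% to 10.1% in IT, and at most 0.776% in the culture libraries. IGFBP7 made up 32.4% to 33.2% in D-2 and 22.0% to 36.8% in DP-3, against 2.33% to 9.66% in FIT. IGFBP6 was the main transcript in DP-3 day 1, at 51.8% to 54.9%, and in D-3, at 43.4% to 51.7%. IGFBP4 was the main one in D-2, at 43.8% to 47.0%. In IT, IGFBP4 made up 50.1% to 57.7%. These shares are per length of transcript and were not tested.

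**Figure D4:**
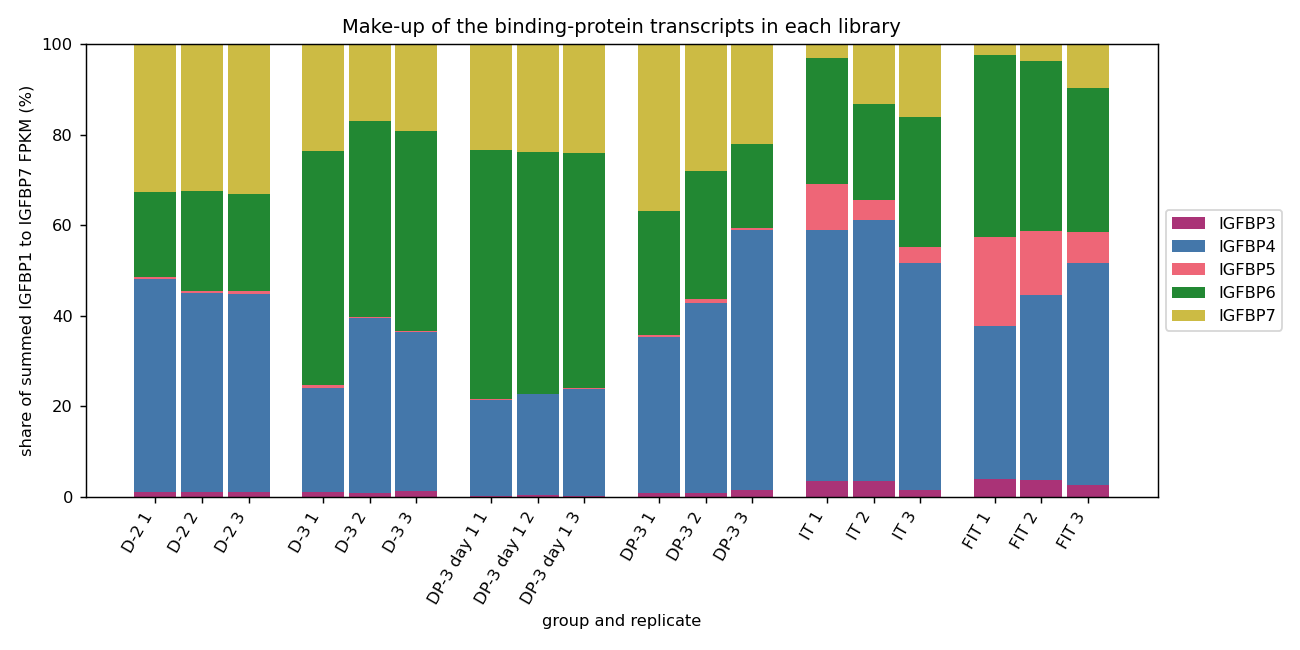
Share (%) of each of IGFBP3 to IGFBP7 in the summed FPKM of the 7 binding-protein genes, one bar per library (IGFBP1 and IGFBP2 are too small to show). IGFBP5 is visible as a block in IT and FIT, up to 19.8%, and IGFBP7 is below 10% in FIT. IGFBP6 is above 50% in DP-3 day 1 and in D-3 replicate 1.

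Other genes of the IGF system were counted from lists of 61 genes. In D-2 against FIT, 4 of the 48 tested were higher and 1 lower, beside 14.6% of all genes called. In D-3 against FIT, 5 of 50 were higher and 3 lower, beside 6.45% of all genes. DP-3 against FIT had 3 of 47 higher and 1 lower, beside 4.82%. None of 49 was called in IT against FIT, where edgeR called no gene. DP-3 against DP-3 day 1 had 4 higher and 2 lower of 48, beside 7.56% of all genes. D-3 against D-2 had 1 higher and 6 lower of 48, beside 18.5%, and DP-3 against D-3 had 4 higher and 3 lower of 48, beside 9.12%. Most genes of these lists were thus not called. The median log2 fold change of the lists lay between -0.06 and 0.17 in the 7 comparisons, and that of all genes tested between -0.09 and 0.11.

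Of 11 genes for other proteins with an IGFBP-type domain, 8 were tested in D-2 against FIT, and ESM1, CCN1 and CCN2 were called higher and none lower. ESM1, which encodes endocan, was at 0.300, 0.242 and 1.38 FPKM in FIT, 15.4, 14.5 and 16.5 in D-2, 14.8, 12.8 and 4.08 in DP-3, and 3.78, 11.0 and 6.17 in D-3. DP-3 day 1 held 3.98, 4.74 and 4.71, and IT 1.78, 2.96 and 1.62. All culture libraries lay above those of IT and FIT. ESM1 was 29.2-fold higher in D-2 (log2 fold change 4.87 ± 0.67 SE, edgeR adjusted p = 0.00365), and the values were 3.46 ± 0.73 in D-3 and 4.23 ± 0.78 in DP-3 (adjusted p = 0.0282 and 0.0243). CCN2, a matrix protein also called CTGF, was at 47.1, 54.0 and 42.9 FPKM in FIT, 248, 225 and 178 in D-2, and 127, 147 and 154 in DP-3. It was 23.9, 27.0 and 44.3 in D-3, near the 37.8, 38.2 and 38.3 of DP-3 day 1. CCN2 rose 5.02-fold in D-2 and 3.24-fold in DP-3 against FIT (adjusted p = 0.00134 and 0.00623). It was 4.52-fold higher in DP-3 than at day 1 (2.18 ± 0.11, adjusted p = 0.000596) and lower in D-3 than in D-2 (-3.03).

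Of the proteases and their inhibitors, PAPPA2, which cleaves IGFBP3 and IGFBP5, was highest in D-3 and DP-3 day 1. Its FPKM was 2.94, 2.72 and 1.60 in D-3 and 1.87, 1.97 and 2.01 in DP-3 day 1. In D-2 it was 0.164, 0.181 and 0.107, in DP-3 0.225, 0.359 and 0.221, and in FIT 0.0552, 0.0690 and 0.274. IT replicates lay at 1.42, 0.328 and 0.451. No library of D-3 or DP-3 day 1 overlapped with those of D-2, DP-3, IT or FIT. PAPPA2 was 18.4-fold higher in D-3 than in FIT (log2 fold change 4.21 ± 0.63 SE, edgeR adjusted p = 0.00946) and 13.4-fold higher than in D-2 (3.75 ± 0.32, adjusted p = 0.00129). In DP-3 it was lower than at day 1 (-2.59 ± 0.21, adjusted p = 0.00158) and than in D-3 (-2.96 ± 0.31, adjusted p = 0.00404). PAPPA, which cleaves IGFBP4, was at 3.02 to 10.2 FPKM in all libraries and was not called in any comparison.

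The other called genes are named here after their values were seen. In the comparisons with FIT, STC2, which inhibits PAPPA and PAPPA2, was higher in D-2 (1.22 ± 0.16) and D-3 (2.06 ± 0.19), and CCN1 in D-2 (1.36 ± 0.16) and DP-3 (1.05 ± 0.20). PIK3R3, a regulatory subunit of PI3K, was lower in all 3 day 14 cultures, by -1.42 ± 0.14 in D-2, -1.01 ± 0.22 in DP-3 and -1.07 ± 0.19 in D-3. The insulin receptor gene INSR was called in D-3 alone of the 3 cultures (1.22 ± 0.22), and the adaptor gene IRS1 was lower there (-1.09 ± 0.27). The differences between these cultures were tested in the comparisons of formats: IRS1 was called lower in D-3 than in D-2 (-1.10 ± 0.18) and higher in DP-3 than in D-3 (1.37 ± 0.19), and INSR was called in neither. IGF2BP1, IGF2BP2 and IGF2BP3, whose proteins bind IGF2 mRNA, were at 6.71 to 26.4 FPKM in every library although IGF2 itself was near the floor. IGF2BP3 was higher in DP-3 than at day 1 (1.06 ± 0.15) and than in D-3 (1.39 ± 0.20), and neither IGF2BP1 nor IGF2BP2 was called in any comparison. CCN4, a matrix protein gene, was lower in D-3 than in FIT (-2.98 ± 0.56) and than in D-2 (-1.61 ± 0.34), and FOXO1, a transcription factor gene that insulin signalling restrains, was higher in D-3 than in FIT (1.13 ± 0.28). The stanniocalcin gene STC1 was higher in DP-3 than at day 1 (1.96 ± 0.17) and than in D-3 (1.06 ± 0.25), where STC2 was lower (-1.42 ± 0.17). H19, the noncoding neighbour of IGF2, was called lower in DP-3, where it was listed at 0 in 2 of 3 libraries, than at day 1, where it was at 0.142, 0.327 and 0.366 FPKM. RPTOR, an mTOR complex gene, and ADAM12 were lower in D-3 than in D-2 (-1.05 ± 0.18 and -1.01 ± 0.33), and CCN5 was lower in DP-3 than in D-3 (-1.97 ± 0.51) at under 0.5 FPKM in every library. The ADAM12 call was at both limits (edgeR adjusted p = 0.0499). Its libraries overlapped, with D-3 replicate 3 at 1.05 FPKM and D-2 replicate 1 at 1.03. In D-3 against FIT, the FOXO1 and IRS1 calls were also near the limit (edgeR adjusted p = 0.0481 and 0.0464). ESM1 was also higher in DP-3 than at day 1 (1.48 ± 0.41) and lower in D-3 than in D-2 (-1.39 ± 0.35).

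**Figure D5:**
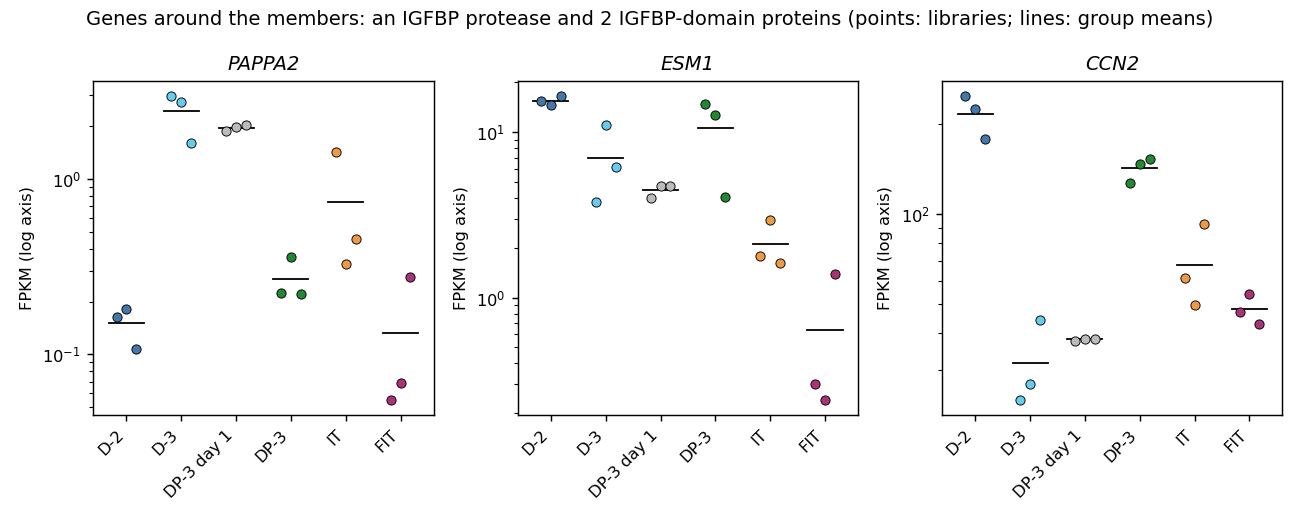
FPKM (log axis, a separate range in each panel) of PAPPA2, ESM1 and CCN2 in each library (points, replicates 1 to 3 from left to right), with group means as lines. PAPPA2 is at 1.60 or above in D-3 and DP-3 day 1, ESM1 is lowest in FIT, and CCN2 is at 127 or above in D-2 and DP-3.

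The genes most like IGFBP3 and IGFBP5 across the 18 libraries were looked up, since these were the 2 members whose group means of log2(FPKM + 0.1) differed by 2 or more, with spans of 4.14 and 6.40. Likeness was the root mean square difference of centred log2(FPKM + 0.1) values over 18 libraries among 12394 genes. Nearest to IGFBP3 were PDGFRL, which encodes a protein like the PDGF receptor (0.59), AC010947 (0.63) and BAALC (0.69). PDGFRL had group means of 30.7 FPKM in FIT, 17.5 in IT, 4.40 in D-3, 3.22 in DP-3, 2.88 in DP-3 day 1 and 2.34 in D-2. Nearest to IGFBP5 were AC010947 (1.15), PDGFRL (1.26) and IGFBP3 itself (1.30), with IGFBP4 at place 115 (2.02). IGFBP7 was at place 12252 (3.27), among the genes least like IGFBP5. The libraries behind these values are those of the comparisons above, so the likeness is a description of the same pattern. Of the nearest members on the chromosome, IGFBP1 lies 18585 bases from IGFBP3, and IGFBP2 7669 bases from IGFBP5, and both were near the floor in most libraries.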

How the data were processed

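Per the labels, poly(A) RNA of 18 libraries was sequenced in read pairs. The submitters' processing notes name cutadapt 1.9, HISAT2 2.0.4 and StringTie 1.3.4d. The authors deposited FPKM values and whole-number estimated counts, of which about 4 were taken to stand for 1 read pair. Of 212148 counts of at most 40, 35% are multiples of 4, against 25% by chance. Most are thus not multiples of 4, and the conversion is an assumption. The build is not given in the sources used here, but 99.89% of 48223 genes overlap their GENCODE 29 (GRCh38) positions. Whether counting used strand is not stated either.

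Counts were tested with edgeR 4.0.16 (quasi-likelihood, TMM, Benjamini-Hochberg over all genes tested) in R 4.3.3, each of 7 comparisons on its own 6 libraries. Genes needed an FPKM of at least 0.1 in 3 of the 6. Called changes had an adjusted p below 0.05 and at least 2-fold, the study's thresholds. Values after ± are SE. The code was tested on simulated data. Replicates were compared, and no pair agreed within sampling noise. Alternatives were DESeq2 1.42.0, limma 3.58.1 on log2(FPKM + 0.1) and log2(FPKM + 1), other filters and scaling, one fit of all libraries, the replicate number as a block, each library left out, and counts divided by 4, chosen after seeing the data.

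The members, gene lists and tests were chosen with earlier results of these data known. Named were all members, in each comparison the 2 called list genes with the largest change, no overlap between groups and 1 FPKM or more as the mean of a group, and the 3 genes most like a member with a span of at least 2.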

Additional observations from a re-analysis of the deposited data

Results flagged for a closer look

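IGFBP6 differed between the D-3 and D-2 cultures by more than the replicate spread. Tested as D-3 against D-2, IGFBP6 was 1.13 log2 units higher in D-3 than in D-2 (SE 0.11, edgeR adjusted p = 0.00142, higher in 3 of 3 D-3 libraries). No FIT library entered this fit, and the change of IGFBP6 from FIT was called in D-2 but not in D-3. Of all genes tested, 18.5% were called in this comparison. In all 15 alternatives the IGFBP6 call was made, with values of 1.05 to 1.38.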

How the results depend on the processing

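Of 43 tested values of members, 15 were called. Over all alternatives, 582 of 640 values kept their direction and side of the threshold, 29 lost the call, 15 gained it and 14 changed sign. In D-2 against FIT, the IGFBP3, IGFBP5, IGFBP6 and IGFBP7 calls held in all 15 alternatives each. So did the IGFBP3 and IGFBP5 calls in D-3 against FIT and the IGFBP5 call in DP-3 against FIT. The IGFBP6 calls in DP-3 against DP-3 day 1 and in D-3 against D-2 likewise held in all 15. With 1 added to FPKM the log2 change of IGFBP5 was smaller (-4.82 in D-2, -4.76 in DP-3, -4.97 in D-3). Apart from the block and the fits that left out a library, calls lost were IGFBP4 in D-3 against FIT and IGFBP6 in DP-3 against FIT by limma on log2(FPKM + 0.1), IGFBP7 in DP-3 against FIT by both limma fits, IGFBP3 between the days of DP-3 by limma on log2(FPKM + 1), and IGFBP5 there by both limma fits and by one fit of all libraries. Calls gained were IGFBP4 in DP-3 against FIT by both limma fits and IGFBP7 in D-3 against FIT by DESeq2 and with no filter.

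Counts of called genes over all genes moved by more than 1.5 times as follows. With a minimum of 1 FPKM they were 1602 in D-2 against FIT (2846 as reported), 900 in DP-3 against DP-3 day 1 (1571), 1902 in D-3 against D-2 (3746) and 1242 in DP-3 against D-3 (1887), with fewer genes tested. By limma with 1 added to FPKM they were 899 in D-2, 435 in DP-3 and 721 in D-3 against FIT (reported: 2846, 965 and 1399), 493 for the days of DP-3, 1165 in D-3 against D-2 and 737 in DP-3 against D-3. By DESeq2 they were 661 in IT, 1896 in DP-3 and 2498 in D-3 against FIT (reported for IT: 0). One fit of all libraries gave 1619 in DP-3 and 553 in IT against FIT, and IT against FIT also had 12 by limma with 0.1 added and 53 with no filter. The cause of these shifts was not tested. In DP-3 against D-3, 1 member, IGFBP6, was called with a minimum of 1 FPKM, by either limma fit, by one fit of all libraries and with the replicate number as a block (0 as reported), and limma with 1 added called 1 member, IGFBP6, between the days of DP-3 (3 as reported).

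Same-numbered deviations from the group means correlated at -0.0745 to 0.0982 over genes, and at 0.0409 to 0.0770 in IT against FIT. IT and FIT can share tumors, and these low values cannot show whether equal numbers mark the same tumor. The main fits took all libraries as independent. With the block, IT against FIT had 0 genes called. With the replicate number as a block, the counts were 164 in DP-3 and 904 in D-3 against FIT, 938 for the days of DP-3 and 1019 in DP-3 against D-3, and 2 members in DP-3 against FIT. The block lost IGFBP3 and IGFBP7 in DP-3 against FIT and IGFBP5 between the days of DP-3.

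With each library left out in turn, the genes called were 0 to 1 in IT, 90 to 1438 in DP-3, 240 to 1495 in D-3 and 1755 to 2980 in D-2 against FIT, 744 to 1585 for the days of DP-3, 2139 to 3519 in D-3 against D-2 and 329 to 2176 in DP-3 against D-3. The members called were 0 in IT, 1 to 4 in DP-3, 2 to 4 in D-3 and 4 in D-2 against FIT, 2 to 3 for the days of DP-3, 1 to 2 in D-3 against D-2 and 0 to 1 in DP-3 against D-3. No called member changed sign in any alternative. Among those not called, the log2 change of IGF1R ran from -0.10 to 0.65 in D-2, from -0.38 to 0.36 in DP-3 and from -0.22 to 1.12 in IT against FIT, and from -0.037 to 0.38 in D-3 against D-2. IGFBP7 ran from -0.32 to 0.20 between the days of DP-3 and was 0.041 with no filter. IGFBP3 ran from -0.24 to 0.12 in D-3 against D-2 and from -0.36 to 0.10 in DP-3 against D-3. In D-3 against D-2 it was 0.090 with a minimum of 1 FPKM, 0.15 by limma with 0.1 added and 0.12 with 1 added.

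The limma fit on log2(FPKM + 0.1) changes model, added constant and scaling together. It moved the median log2 fold change of all genes by -0.10 in D-2 against FIT and -0.23 for the days of DP-3. The shift was 0.20 in D-3 against D-2 and -0.19 in DP-3 against D-3, and no called member changed direction in this fit. Median-of-ratios scaling alone moved the median most in D-3 against FIT, by -0.016. Without the filter IGFBP1 in DP-3 against FIT and IGFBP2 between the days of DP-3 were also called, from libraries at 0. In the shallowest library 12 counts were 0.506 CPM, so a lower level could not be shown there. Dividing the counts by 4, chosen after seeing the data, added IGFBP7 in D-3 against FIT (adjusted p = 0.0472) and changed no other member call.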
